A study of Mus musculus with 12 samples.

Results

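Galectins are lectins that bind galactose-containing sugars on cell surface glycoproteins, and several of them bind the sugars of CD45, the phosphatase that the antibody of this study targets. The 6 galectin genes Lgals1, Lgals3, Lgals4, Lgals7, Lgals8 and Lgals9 were followed together with Lgals3bp, which encodes a glycoprotein that binds galectin-3 and is not itself a galectin. These 7 genes are part of a table of 35275 genes. They were taken by name, and Lgals7 was selected on its level in treated SLE123 mice. The difference between treated and untreated SLE123 mice is therefore given below as a description with no test. For Lgals7 the differences between the strains are also given with no test.

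The CD4+ T cells came from 12 female mice in 4 groups of 3, and each mouse gave 1 RNA-Seq library. The control strain B6 was C57BL/6J, and the SLE123 mice were congenic B6 mice with the Sle1, Sle2 and Sle3 regions of the lupus-prone NZM2410 strain, which the labels write as B6.NZMSle1/Sle2/Sle3. The mice of all 4 groups were 9 to 12 weeks old by the paper's figure legend, while its methods give 9 weeks. The treated mice of both strains were given anti-CD45RB (clone MB23G2), 100 μg per intraperitoneal injection, in 5 injections between day 0 and day 7. The untreated mice of both strains received no control antibody, so an effect of the antibody's target and an effect of the injections cannot be told apart. Sle3 lies on chromosome 7, as do Lgals4 and Lgals7, and the boundaries of the NZM2410 segments were not analysed here. Reads of both strains were mapped to mm10, which is the genome of B6, and the effect of strain variants on the counts of these genes was not tested.

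Galectins fall into classes by their shape. Prototype galectins such as galectin-1 and galectin-7 carry a single sugar-binding domain, the chimeric galectin-3 joins such a domain to a flexible tail, and the tandem-repeat galectins 4, 8 and 9 carry a pair of them on 1 chain. On T cells, galectin-1 binds CD7, CD43 and CD45 and can trigger cell death, galectin-3 crosslinks glycoproteins and raises the threshold of receptor signaling, and galectin-9 is a ligand of TIM-3. Galectin-7 is known mainly from stratified epithelia such as the epidermis, and galectin-4 from the gut.

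The levels are FPKM, which are fragments scaled by transcript length and by the size of the library, so they can be compared between genes. The library totals recovered from the values were 13563594 to 23642949 fragments. The Cd4 transcript was high in all 12 libraries, at 237 to 327 FPKM. Other material also differed between groups. Immunoglobulin genes took 0.0895% to 0.336% of the fragments in the B6 libraries, 5.06% to 12.2% in untreated SLE123 and 2.51% to 5.38% in treated SLE123. Albumin (Alb), a liver transcript, was at 24.7 to 30.7 FPKM in all 6 B6 libraries and at 28.2 FPKM in treated SLE123 replicate 1, and at no more than 0.0296 FPKM in the other 5 SLE123 libraries. Untreated SLE123 replicate 3 stood apart by its macrophage transcripts, with C1qa at 14 FPKM against 0 to 0.815 FPKM elsewhere. In these bulk libraries, fewer cells of a type and less RNA per cell cannot be told apart.

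The promoter of Lgals7 is shown because this gene had the largest difference of the members, and that of Lgals9 because it alone of the 6 members with a promoter entry held an interferon-stimulated response element, a motif of the interferon response that also appears in the results below. The sequences are from RefSeq (GRCm38) and read 5′ to 3′ on the strand of the gene, up to the base before the start of transcription given there. The Lgals7 window is chr7:28864136-28864228 on the plus strand, with a GC box (GGGCGG) in capitals. It lies inside the span that GENCODE gives for the gene, chr7:28863853-28866284, so the RefSeq and GENCODE starts differ. Which start the RNA of these cells used was not tested. The Lgals9 window is chr11:78984947-78985174 on the minus strand, with a match to the interferon-stimulated response element in capitals.
Lgals7: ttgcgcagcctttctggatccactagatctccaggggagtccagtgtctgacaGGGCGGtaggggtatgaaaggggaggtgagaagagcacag
Lgals9: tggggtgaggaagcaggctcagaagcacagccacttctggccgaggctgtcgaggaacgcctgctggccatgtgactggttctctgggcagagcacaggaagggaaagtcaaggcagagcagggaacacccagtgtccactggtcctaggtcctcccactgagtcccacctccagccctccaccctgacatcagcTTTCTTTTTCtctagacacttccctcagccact

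The motifs were searched on both strands in the 250 bases before each start, in the 6 members that had a promoter entry. The interferon-stimulated response element (GAAA, then any 2 bases, then GAAA) was found in Lgals9 alone of the 6, where it reads on the opposite strand, and in 2.98% of the 32851 promoters. The GC box was found in Lgals7 and Lgals3 and in 32.7% of all promoters. The cAMP response element (TGACGTCA) was found in 0 of the 6 members and in 1.55% of all promoters. A match is a description of the letters and not a site of binding.

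In untreated B6 cells, Lgals9 and Lgals1 were the most abundant galectin transcripts, and Lgals7 was the least abundant. Lgals9 made up 42.0% ± 1.28 of the summed FPKM of the 6 galectins and Lgals1 39.1% ± 1.75 (SD, n = 3). Lgals7 made up 0.277% ± 0.109. In each of the other 3 groups Lgals1 was the largest share, at 60.1% ± 1.60 in treated B6, 60.7% ± 1.63 in untreated SLE123 and 60.5% ± 2.38 in treated SLE123. Lgals7 made up 4.59% ± 0.412 of the sum in treated SLE123, above Lgals3 and Lgals4, and 0.555% ± 0.0738 or less in the other 3 groups. The sum itself was 204 to 214 FPKM in untreated B6 and 369 to 388 FPKM in treated SLE123.

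**Figure D1:**
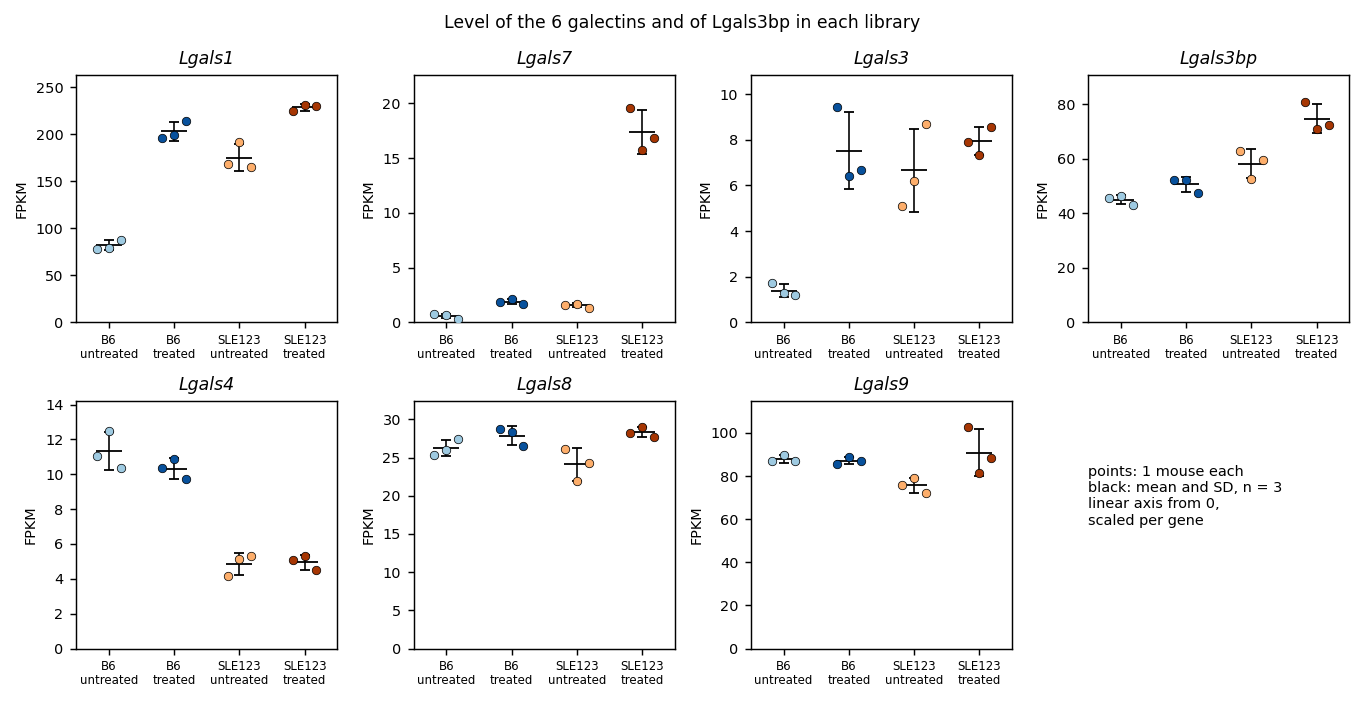
FPKM of the 7 genes (vertical axes, linear from 0, each with its own scale) in each of the 12 libraries, by group. Points are single mice and black marks are the mean and SD of 3 mice. Lgals7 was at 15.7 to 19.6 FPKM in treated SLE123 and at 2.11 FPKM or less in the other 9 libraries.

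Counted over the members, treatment in B6 called 3 of 7 genes higher (Lgals1, Lgals3 and Lgals7) and 0 lower, where 8.74% of the 13115 genes tested were called higher and 6.12% lower. The median difference of the 7 was 0.17 against 0.00 over all genes. In SLE123 all 7 differences were above 0 and 5 of the 7 did not overlap, where 13.7% of all genes were higher without overlap. Their median was 0.25 against 0.04 over all genes. In that comparison 0.0381% of all genes were called and 10.4% had an unadjusted p under 0.05. Nothing is read from the SLE123 count, which used the same mice as the choice of Lgals7. Between untreated strains, Lgals7 is left out, since its choice used the untreated SLE123 mice. Of the other 6 members, 3 (Lgals1, Lgals3 and Lgals3bp) were called higher in SLE123 and 1 (Lgals4) lower. Of all genes, 22.8% were called higher and 20.1% lower. Between treated strains, 2 of the 6 members tested were called higher and 1 lower, where 29.6% and 22.5% of all genes were. The treatment and strain comparisons share groups of mice, and their differences are set side by side only.

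**Figure D2:**
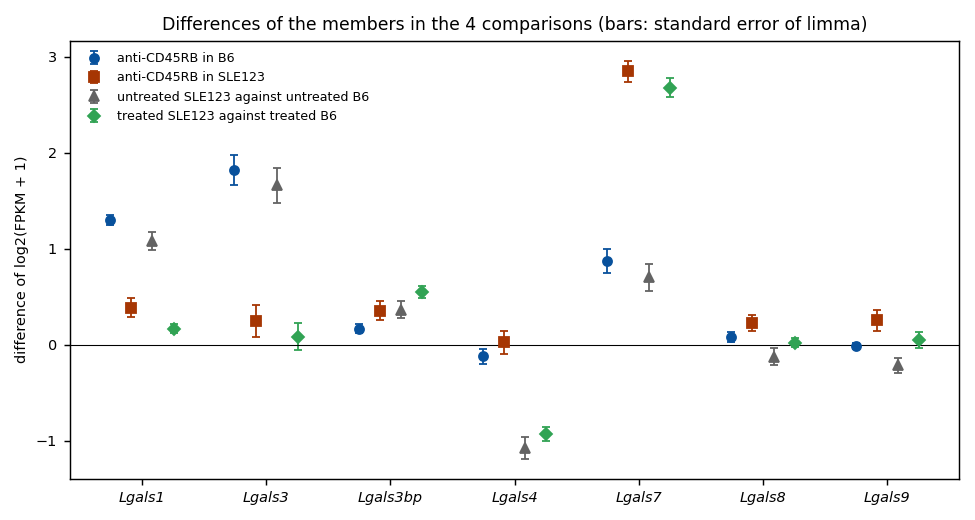
Difference of log2(FPKM + 1) with its standard error (vertical axis) for the 7 genes (horizontal axis) in the 4 comparisons, each fitted on 6 mice. Lgals1 and Lgals3 stand at 1.30 and 1.82 for treatment in B6 and at 0.38 and 0.25 for treatment in SLE123, Lgals7 at 0.87 and 2.85, and Lgals4 is below 0 in both comparisons of the strains.

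Lgals7 (ENSMUSG00000053522) lies on the plus strand of chromosome 7, at chr7:28863853-28866284 of GRCm38. It encodes galectin-7, a prototype galectin. Its level was lowest in untreated B6, at 0.740, 0.660 and 0.330 FPKM in replicates 3, 4 and 5, which rest on 9, 9 and 4 fragments. The counting interval of the lowest of these libraries, an exact Poisson 95% interval that covers counting error only, was 0.0898 to 0.844 FPKM. The level was 1.86, 2.11 and 1.66 FPKM in treated B6 replicates 1, 3 and 5, from 19 to 26 fragments. These B6 groups did not overlap. Untreated SLE123 mice were at 1.60, 1.70 and 1.35 FPKM, from 20 to 24 fragments, which overlapped the range of treated B6. Treated SLE123 mice were at 19.6, 15.7 and 16.9 FPKM, from 223 to 249 fragments, and lay above all other libraries.

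In SLE123 the mean of Lgals7 was thus 17.4 ± 2.01 FPKM after treatment and 1.55 ± 0.184 FPKM without it (SD, n = 3), which is 11.2-fold. On the scale of log2(FPKM + 1) used for all differences below, the treated mice were higher by 2.85 (SE 0.11), and leaving out each mouse in turn gave 2.76 to 2.91. Of the 13115 genes tested, only Gcg had a larger difference in that direction. In B6 the mean was 1.87 ± 0.226 FPKM against 0.576 ± 0.217 FPKM, which is 3.25-fold. That difference was 0.87 (SE 0.13), with an adjusted p of 0.0076 by limma. It is smaller on the log scale than the fold implies because 1 is added to values near 1. The comparisons in the strains share no mice, and the difference between them was not tested, since the rise in treated SLE123 mice chose the gene.

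Without treatment, Lgals7 was also higher in SLE123 than in B6, by 0.70 (SE 0.14, no test), and the 3 mice of each strain did not overlap. Among treated mice the difference between the strains was 2.68 (SE 0.099), given with no test. The order of the groups was untreated B6, untreated SLE123, treated B6 and treated SLE123, and the middle pair overlapped.

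The treatment differences of the genes around Lgals7 were smaller. Within 100 kb lie, in whole or in part, Nfkbib, Sirt2, Rinl, Hnrnpl, Ech1 and Lgals4 on one side and Capn12 and Actn4 on the other. In SLE123 their treatment differences ran from -0.07 (Nfkbib) to 0.30 (Actn4), against 2.85 for Lgals7. Capn12, which encodes a calpain protease and starts 17.6 kb beyond the start of Lgals7, was at 0.0214 to 0.231 FPKM in all 12 libraries. In B6 the treatment differences of the neighbors ran from -0.12 (Lgals4) to 0.28 (Nfkbib), and Nfkbib, an inhibitor of NF-κB, was the 1 neighbor that was called (adjusted p = 0.027). An antisense gene overlaps Lgals7 in the annotation, and the strand used in counting is not given in the sources used here, so reads of the pair cannot be told apart.

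**Figure D3:**
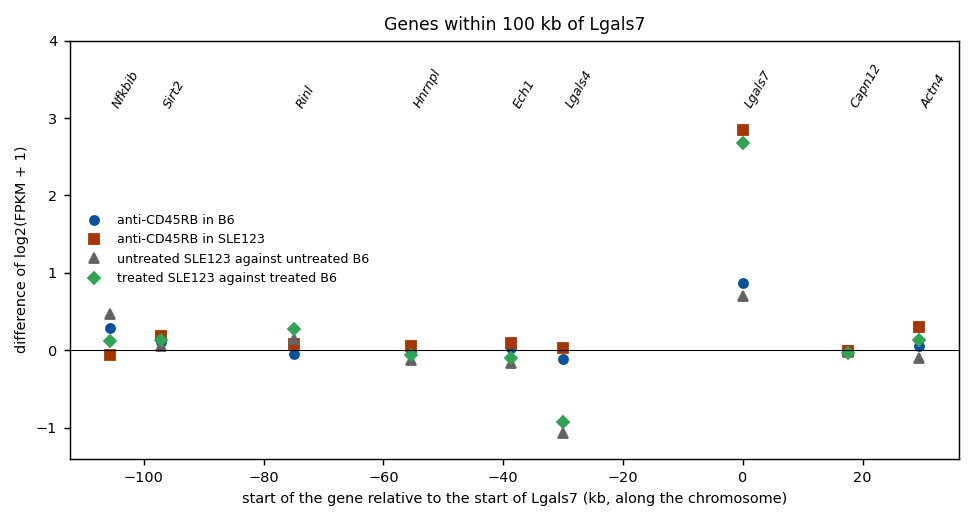
Difference of log2(FPKM + 1) (vertical axis) of the genes within 100 kb of Lgals7 against the start of each gene relative to the start of Lgals7 in kb (horizontal axis). Symbols are the 4 comparisons. Lgals7 stands at 2.85 and 2.68 in the comparisons that involve treated SLE123 mice, while Lgals4, 30.0 kb away, stands at -1.07 and -0.93 between the strains.

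Transcripts of cells that are known to express galectin-7 were looked at beside it. Of 14 keratinocyte markers, Krt5, Krt14, Krt15, Krtdap and Sprr1a were at 0 in all 12 libraries. The summed level of the 14 was 36.6 to 49.0 FPKM in treated SLE123 and 39.1 to 78.2 FPKM in untreated SLE123, and these ranges overlap. Ly6d, 1 of the 14 and also a B cell gene, was at 12.1 to 24.9 FPKM in treated and 17.4 to 53.5 FPKM in untreated SLE123. Both sums were above that of untreated B6, at 30.5 to 33.1 FPKM, where Ly6d was at 0.297 to 1.08 FPKM. Sfn, also 1 of the 14, was lower in SLE123. It was at 27.5 to 30.3 FPKM in untreated B6, 16.6 to 25.2 FPKM in untreated SLE123 and 18.6 to 20.1 FPKM in treated SLE123. Between untreated strains, 3 of the 5 markers tested were called higher in SLE123 and 1 lower, where 22.8% and 20.1% of all genes were. In treated B6, at a sum of 39.0 to 46.0 FPKM, 3 of the 5 were called higher, where 8.74% of all genes were. The part of epithelial cells in the level of Lgals7 was not tested.

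Pancreatic transcripts were also read beside Lgals7. Gcg, which encodes the precursor of glucagon, was at 14.5, 17.7 and 17.1 FPKM in treated SLE123 and at 2.35 FPKM or less in the other 9 libraries. The other islet transcripts Ins2 and Ppy were at 0 in all 12. The summed level of 8 exocrine pancreas markers was 10.7 to 26.9 FPKM in treated SLE123, 5.15 to 8.79 FPKM in untreated SLE123, 2.26 to 5.42 FPKM in treated B6 and 1.43 to 19.3 FPKM in untreated B6, with Prss1 and Amy2a5 at 0 in all 12. For treatment in SLE123, 0 of the 5 exocrine markers tested were called by limma or by voom on recovered fragments. By limma 0.0381% of all genes were called there. Of the 5 markers, 4 had an unadjusted p under 0.05, where 10.4% of all genes did. Between treated strains, 3 of the 5 were called higher in SLE123 by limma and 0 lower, where 29.6% and 22.5% of all genes were. Pnlip, which encodes pancreatic lipase, was at 3.68, 0.786 and 1.40 FPKM in treated SLE123. It was at 3.21, 0.223 and 0 FPKM in untreated B6, at most 0.494 FPKM in treated B6 and at most 0.0721 FPKM in untreated SLE123. The part of pancreatic material in the level of Lgals7 was not tested.

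**Figure D4:**
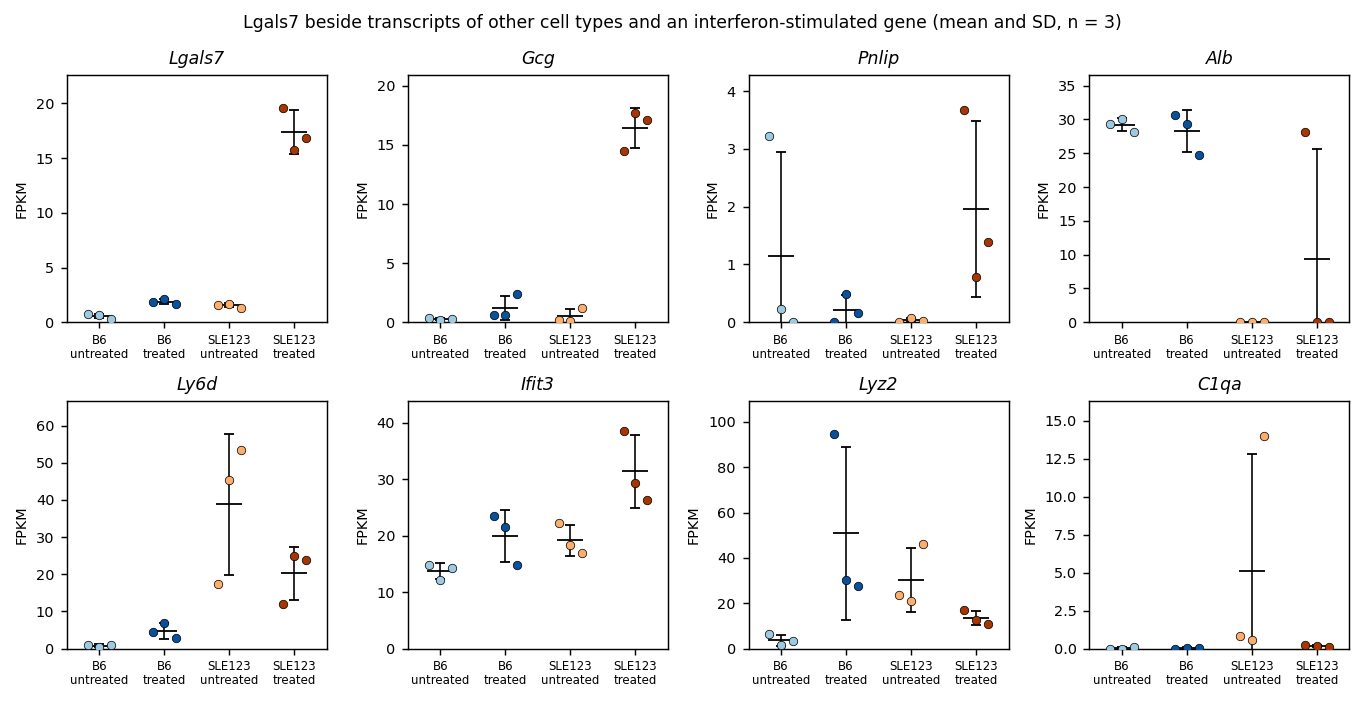
FPKM (linear axes from 0) of Lgals7 and of 7 other transcripts in the 12 libraries by group, with the mean and SD of 3 mice, where bars that reach below 0 are cut at the axis. Gcg is high in the same 3 libraries as Lgals7. Pnlip is at 0.786 to 3.68 FPKM in treated SLE123 and at 3.21 FPKM in untreated B6 replicate 3. Alb is high in all B6 libraries and in treated SLE123 replicate 1, and C1qa is high in untreated SLE123 replicate 3 alone.

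Over the 12 libraries the genes most like Lgals7 included Nos1 (Pearson's r = 0.969), Smarca4 (0.966), Zbp1 (0.962) and Maats1 (0.952), out of 15657 genes compared. These values are a description, since the points share strains, groups and libraries, and treated SLE123 mice set the range. Nos1 and Maats1 were at a group mean of no more than 0.453 FPKM. Zbp1, an interferon-induced sensor of nucleic acids, had mean levels of 37.4 FPKM in untreated B6, 42.3 FPKM in treated B6, 43.4 FPKM in untreated SLE123 and 64.3 FPKM in treated SLE123.

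Lgals1 (ENSMUSG00000068220, chr15:78926725-78930465, plus strand) encodes galectin-1, the other prototype galectin, and was the most abundant member after treatment in both strains. It was at 78.3, 79.4 and 88.0 FPKM in untreated B6 and at 195.6, 199.6 and 214 FPKM in treated B6. The treated B6 mice were all above the untreated ones. In B6 the rise was 2.48-fold, or 1.30 on the log2 scale (SE 0.055, adjusted p = 0.00027), and ranked 126th of 13115 genes.

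Untreated SLE123 mice started higher, at 168, 191 and 166 FPKM. Treated SLE123 mice were at 225, 231 and 230 FPKM, which was above all untreated SLE123 mice by 1.31-fold in the mean and 0.38 on the log2 scale (SE 0.10, no test). Between untreated mice the strain difference was 1.09 (SE 0.094, adjusted p = 0.000165). Between treated mice it was 0.17 (SE 0.044, adjusted p = 0.016), and this call was lost without B6 treated replicate 1 (0.14, adjusted p = 0.059) or 3 (0.16, 0.05002) and without SLE123 treated replicate 2 (0.16, 0.058) or 3 (0.17, 0.051). Its direction turned to -0.01 with rescaling to TPM and -0.03 with quantile normalization. In FPKM the groups stood in the order untreated B6, untreated SLE123, treated B6 and treated SLE123, with no overlap between neighbors. The order of the treated groups depended on the scaling, as these values show.

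Markers of activated and memory T cells, which are known to express more galectin-1, were higher in the same 3 groups. Their summed level over 9 genes was 243 to 260 FPKM in untreated B6, 327 to 380 FPKM in treated B6, 560 to 605 FPKM in untreated SLE123 and 580.5 to 612 FPKM in treated SLE123. In treated B6, 4 of the 9 were called higher by limma and 0 lower, where 8.74% and 6.12% of all genes were. Foxp3, the defining factor of regulatory T cells, was at 3.93 to 6.65 FPKM in untreated and 7.65 to 8.54 FPKM in treated B6. Lgals1 was higher in treated B6 than in untreated SLE123 in each mouse, while the summed marker level was lower there. The part of cell composition in the level of Lgals1 was not tested.

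Lgals3 (ENSMUSG00000050335, chr14:47367751-47386160, plus strand) encodes the chimeric galectin-3, which macrophages express strongly. It was at 1.70, 1.29 and 1.18 FPKM in untreated B6, from 27 to 39 fragments, and at 9.46, 6.41 and 6.66 FPKM in treated B6. All treated B6 mice were above all untreated ones. The rise was 5.4-fold and 1.82 on the log2 scale (SE 0.15, adjusted p = 0.0013), the largest of the 7 members in B6 and 55th of 13115 genes.

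In SLE123, Lgals3 was at 5.12, 6.18 and 8.67 FPKM in untreated and at 7.91, 7.33 and 8.57 FPKM in treated mice. These groups overlapped, and their difference was 0.25 (SE 0.17). It was 0.43 without untreated SLE123 replicate 3 and 0.098 without untreated SLE123 replicate 1. Between untreated mice Lgals3 was higher in SLE123 by 1.66 (SE 0.18, adjusted p = 0.000478). Between treated mice the difference was 0.09, with a 95% interval of -0.24 to 0.41, and was not called (adjusted p = 0.63). It was called without B6 treated replicate 1, at 0.24 (adjusted p = 0.0496), and was -0.0046 without B6 treated replicate 3.

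Some myeloid transcripts were also higher in treated B6. The summed level of 12 macrophage and monocyte markers was 7.59 to 14.3 FPKM in untreated B6 and 35.6 to 109 FPKM in treated B6, and 2 of the 8 that passed the filter on low values were called higher, where 8.74% of all genes were. The median difference of those 8 was 0.11. Most of the sum in treated B6 was Lyz2, the lysozyme of these cells, at 94.7, 30.1 and 27.7 FPKM in replicates 1, 3 and 5. Replicate 1 was the treated B6 library with the most Lgals3. Without that library the B6 difference of Lgals3 was 1.66 (adjusted p = 0.0033). Among other cell types in treated B6, 5 of 7 neutrophil markers, 4 of 5 dendritic cell markers, 5 of 5 B cell markers, 6 of 8 basophil, eosinophil and mast cell markers and 5 of 6 platelet and erythroid markers were called higher, where 8.74% of all genes were. Of 10 T cell markers, 6 were called lower, where 6.12% of all genes were. In untreated SLE123, replicate 3 had both the highest Lgals3 and the highest C1qa, and without it the untreated strain difference was 1.48 (adjusted p = 0.000736). In treated SLE123 the macrophage sum was 18 to 24.4 FPKM, below every treated B6 library, while Lgals3 was at a level that overlapped theirs. The part of myeloid cells in the level of Lgals3 was not tested.

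Lgals1 and Lgals3 varied alike over the 12 libraries (r = 0.945), and the chemokine gene Ccl4 was among the 5 genes most like each of them. For Lgals3 it was the closest of 11204 genes (r = 0.977), before Plp2, Ifitm3, Fes and Emilin2. For Lgals1 the closest was Ccl3 (r = 0.963), before Nptn, Bcl2l1, Ccl4 and Gna15. Ccl3 and Ccl4 encode inflammatory chemokines. Ccl4 had mean levels of 0.523 FPKM in untreated B6, 5.61 FPKM in treated B6, 5.67 FPKM in untreated SLE123 and 7.45 FPKM in treated SLE123.

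Lgals3bp (ENSMUSG00000033880, chr11:118392751-118402092, minus strand) encodes the secreted binding partner of galectin-3, which interferon is known to raise. It was at 45.4, 46.1 and 43.0 FPKM in untreated B6 and at 52.1, 52.2 and 47.5 FPKM in treated B6, without overlap. This difference of 0.17 (SE 0.049) missed the threshold (adjusted p = 0.060). It passed at 0.21 (adjusted p = 0.047) without B6 treated replicate 5, and with median centring (0.18) or voom on recovered fragments (0.17). In SLE123 the level was 62.7, 52.4 and 59.3 FPKM in untreated and 80.7, 71.0 and 72.3 FPKM in treated mice, a difference of 0.36 (SE 0.097, no test) with no overlap.

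Lgals3bp was higher in SLE123 than in B6 among treated mice, by 0.55 (SE 0.063, adjusted p = 0.000501). Among untreated mice it was higher by 0.36 (SE 0.088, adjusted p = 0.014), except that rescaling to TPM gave -0.01, where the median of all genes was -0.38, and that the call was lost without untreated B6 replicate 3 (0.37, adjusted p = 0.054) or replicate 5 (0.34, adjusted p = 0.065). In FPKM the groups stood in the order untreated B6, treated B6, untreated SLE123 and treated SLE123, and no neighbors overlapped. The middle pair was barely apart, at 52.2 FPKM in treated B6 replicate 3 and 52.4 FPKM in untreated SLE123 replicate 2. Their Poisson counting intervals, 50.0 to 54.6 and 50.3 to 54.6 FPKM, overlapped. With TPM the treatment difference in B6 was 0.16, against the -0.01 between untreated strains, so the order of that pair turned.

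The genes most like Lgals3bp included 3 interferon-stimulated genes with roles in antiviral defense, Dhx58 (r = 0.991), Eif2ak2 (0.966) and Oasl2 (0.966), beside Arl5a and Ccr4. The summed level of 14 interferon-stimulated markers stood in the same order of groups, at 222 to 250 FPKM in untreated B6, 274 to 336 FPKM in treated B6, 340 to 387 FPKM in untreated SLE123 and 433 to 495 FPKM in treated SLE123. In treated B6, 5 of the 14 were called higher and 0 lower, where 8.74% and 6.12% of all genes were. In treated SLE123, 0 of the 14 were called by limma or by voom on recovered fragments, where limma called 0.0381% of all genes. By limma 11 of the 14 had an unadjusted p under 0.05, where 10.4% of all genes did. The median difference of the 14 was 0.45 against 0.04 over all genes tested.

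Lgals4 (ENSMUSG00000053964, chr7:28833854-28841708, plus strand) encodes a tandem-repeat galectin of the gut lining. It was lower in SLE123 whether or not the mice were treated. The level was 11.1, 12.5 and 10.4 FPKM in untreated B6 and 10.3, 10.9 and 9.71 FPKM in treated B6, and these groups overlapped. It was 4.15, 5.14 and 5.32 FPKM in untreated SLE123 and 5.06, 5.33 and 4.49 FPKM in treated SLE123, again with overlap. All 6 SLE123 mice were below all 6 B6 mice. The strain difference was -1.07 (SE 0.12, adjusted p = 0.000450) without treatment and -0.93 (SE 0.075, adjusted p = 0.000136) with it.

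Treatment itself gave a Lgals4 difference of -0.12 in B6 (95% interval -0.30 to 0.07, adjusted p = 0.33) and of 0.03 in SLE123. The B6 value was -0.05 without untreated B6 replicate 4 and -0.08 without treated B6 replicate 5, and the SLE123 value, with 1 mouse left out at a time, ran from -0.07 to 0.08, below 0 without untreated SLE123 replicate 1 or treated SLE123 replicate 2. Of the 5 genes most like Lgals4 over the 12 libraries, Ppp1r15a, Sbsn, Htatip2 and Ccdc61 are also on chromosome 7, with r between 0.980 and 0.982, and BC147527 is on chromosome 13. Htatip2 was at a mean of 17.4 FPKM in untreated B6 and 0.174 FPKM in untreated SLE123. Lgals6 is a near copy of Lgals4 that some mouse strains carry, and it was not analysed here, so the value of Lgals4 could hold reads of such a copy. The summed level of 10 gut epithelial markers went the other way, at 3.36 to 5.79 FPKM in B6 and 11.1 to 20.9 FPKM in SLE123. Much of it was Epcam, at 0.912 to 1.46 FPKM in B6 and 4.13 to 12.7 FPKM in SLE123. Only 3 of the 10 passed the filter on low values, and Krt20 and Cdx1 were at 0 in all 12 libraries. Between untreated strains those 3 were called higher in SLE123, where 22.8% of all genes were.

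Lgals8 (ENSMUSG00000057554, chr13:12439415-12464944, minus strand) encodes a tandem-repeat galectin that binds damaged endosomes and integrins, and it was the least variable member. Its level was 25.4 to 27.4 FPKM in untreated B6, 26.5 to 28.8 FPKM in treated B6, 21.9 to 26.2 FPKM in untreated SLE123 and 27.7 to 29.0 FPKM in treated SLE123. The SLE123 groups did not overlap, with a difference of 0.23 (SE 0.084, no test). No tested difference of Lgals8 passed the threshold, except that between untreated strains after rescaling to TPM (-0.50). These were 0.08 in B6 (95% interval -0.03 to 0.20), -0.12 between untreated strains (-0.32 to 0.08) and 0.02 between treated strains (-0.08 to 0.13). The genes most like Lgals8 were Flii (r = 0.958), Arih1, Lmtk2, Slfn3 and Tgfbrap1.

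Lgals9 (ENSMUSG00000001123, chr11:78962974-78984946, minus strand) encodes the tandem-repeat galectin-9. In B6 it was at 87.2, 89.8 and 86.8 FPKM without treatment and at 85.5, 88.9 and 87.2 FPKM with it. These values overlapped, and the interval of the log2 difference was -0.08 to 0.06. In SLE123 it was at 75.7, 79.3 and 72.1 FPKM without treatment and at 103, 81.4 and 88.2 FPKM with it, which did not overlap (0.25, SE 0.10, no test), and without SLE123 treated replicate 1, the highest library, that difference was 0.16. Untreated SLE123 mice were all below untreated B6 mice, and that difference of -0.21 (SE 0.074) missed the threshold (adjusted p = 0.0503). It was called at -0.25 without SLE123 untreated replicate 2 (adjusted p = 0.019), and also after rescaling to TPM (-0.60) or quantile normalization (-0.37). Treated mice of the strains overlapped, with a difference of 0.05 and an interval of -0.14 to 0.25, which was -0.04 without SLE123 treated replicate 1. The genes most like Lgals9 included Wdr36 (r = 0.914), Eef2kmt, Twistnb and Zbtb40.

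Other members of the galectin family were at levels from 0 to 6.98 FPKM. Lgals2 was listed at 0 in all 12 libraries, and Lgals12 reached 0.0647 FPKM at most. Lgalsl, which encodes a galectin-related protein without known sugar binding, was at 0.924 to 1.64 FPKM in the 6 B6 mice and 4.57 to 6.98 FPKM in the 6 SLE123 mice, and was called higher in SLE123 without treatment (1.64, SE 0.18, adjusted p = 0.000418) and with it (1.29, SE 0.082, adjusted p = 6.22e-05). Grifin, a galectin-related gene of the lens, was lower in SLE123 without treatment (-1.07, adjusted p = 0.023) and with it (-1.0, adjusted p = 0.0013). Neither was called for treatment in B6 or in SLE123 by limma or by voom on recovered fragments, and Grifin in SLE123 (0.38) had an unadjusted p under 0.05.

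Galectins act through glycoproteins at the surface, and 19 such counter-receptors were read from the same fits. In treated B6, 5 of 19 were called higher and 0 lower, where 8.74% and 6.12% of all genes were. By voom on recovered fragments 10 of the 19 were called in either direction, where 2708 of 13114 genes were. Cd7, a receptor for galectin-1 in T cell death, rose from 19.5 ± 0.758 to 35.0 ± 2.10 FPKM (0.81, SE 0.054, adjusted p = 0.000653). Havcr2, which encodes TIM-3, rose from 0.0608 ± 0.0575 to 0.572 ± 0.0323 FPKM (0.57, adjusted p = 0.0068), and Spn, which encodes CD43, from 171 ± 3.75 to 220 ± 14.4 FPKM (0.36, adjusted p = 0.0068). Lamp1 and Itgb1 were the others that were called. Itga4, Ptprc and Cd3e had the smallest differences, at -0.24, -0.17 and -0.13, and their adjusted p-values of 0.051 to 0.054 missed the threshold. Ptprc encodes CD45 itself, the protein that the antibody binds, and its mean was 520 ± 19.4 FPKM in untreated and 461 ± 22.7 FPKM in treated B6.

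In treated SLE123, 0 of the 19 counter-receptors were called by limma or by voom on recovered fragments, where limma called 0.0381% of all genes. By limma 1 of the 19 had an unadjusted p under 0.05, where 10.4% of all genes did. The largest differences there were 0.48 for Itga4, 0.36 for Cd7 and 0.30 for Ptprc, and the smallest were -0.18 for Lamp1, -0.17 for Cd44 and -0.15 for P4hb.

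Between untreated strains, 9 of 19 counter-receptors were called higher and 2 lower in SLE123, where 22.8% and 20.1% of all genes were. Between treated strains, 12 were called higher and 3 lower, where 29.6% and 22.5% of all genes were. The inhibitory receptor Lag3, a ligand of galectin-3, was at 6.40 ± 1.47 FPKM in untreated B6 and 114 ± 2.44 FPKM in untreated SLE123 (3.98, adjusted p = 4.95e-06). Ctla4 differed by 2.31 and Itgb1 by 1.58 in the same direction. Thy1 and Cd7 were lower in SLE123, by -1.02 and -0.99, and Ptprc, the next lowest, was not called (-0.40, adjusted p = 0.083). Among treated mice Cd7 was at 12.4 ± 2.48 FPKM in SLE123 and 35.0 ± 2.10 FPKM in B6 (-1.44, adjusted p = 0.000235), followed by Thy1 (-0.87) and Tnfrsf25 (-0.16). Lag3, Ctla4 and Tnfrsf9 had the largest differences there, at 4.08, 2.34 and 1.42.

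The sugars that galectins bind are built by Golgi enzymes, of which 17 were read in the same way. In treated B6, 2 were called higher and 1 lower, where 8.74% and 6.12% of all genes were. By voom on recovered fragments 6 of the 17 were called in either direction, where 2708 of 13114 genes were. Gcnt1, which starts the core 2 branches of O-glycans that galectin-1 binds, was at 0.765 ± 0.0827 FPKM without and 1.43 ± 0.254 FPKM with treatment (0.46, SE 0.10, adjusted p = 0.029), and the sialyltransferase gene St3gal4 differed by 0.31 (adjusted p = 0.015). Mgat4b, the third largest, was not called (0.29, adjusted p = 0.19). Man2a2, a mannosidase that trims N-glycans before branching, was lower (-0.36, adjusted p = 0.010), and Mgat4a (-0.26) and St3gal1 (-0.20) were not called.

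In treated SLE123, 0 of the 17 enzymes were called by limma or by voom on recovered fragments, where limma called 0.0381% of all genes. By limma 2 of the 17 had an unadjusted p under 0.05, where 10.4% of all genes did. The differences ran from -0.24 for Mgat1, -0.20 for St6gal1 and -0.14 for St3gal3 to 0.25 for Mgat5, 0.28 for Gcnt1 and 0.55 for C1galt1. Between untreated strains 4 of 17 were higher and 2 lower in SLE123, where 22.8% and 20.1% of all genes were. Gcnt1 (1.08, adjusted p = 0.0023), Mgat1 (0.80) and Mgat4b (0.73) were the highest, and B4galt1 (-0.35) and St3gal1 (-0.35) the lowest that were called, below which C1galt1 at -0.52 was not (adjusted p = 0.091). Between treated strains 6 were higher and 2 lower, where 29.6% and 22.5% of all genes were. The differences ran from Gcnt1 (0.90), Man2a1 (0.67) and Mgat1 (0.44) to B4galt1 (-0.37) and St3gal4 (-0.38), with St3gal6 at -0.09 not called.

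**Figure D5:**
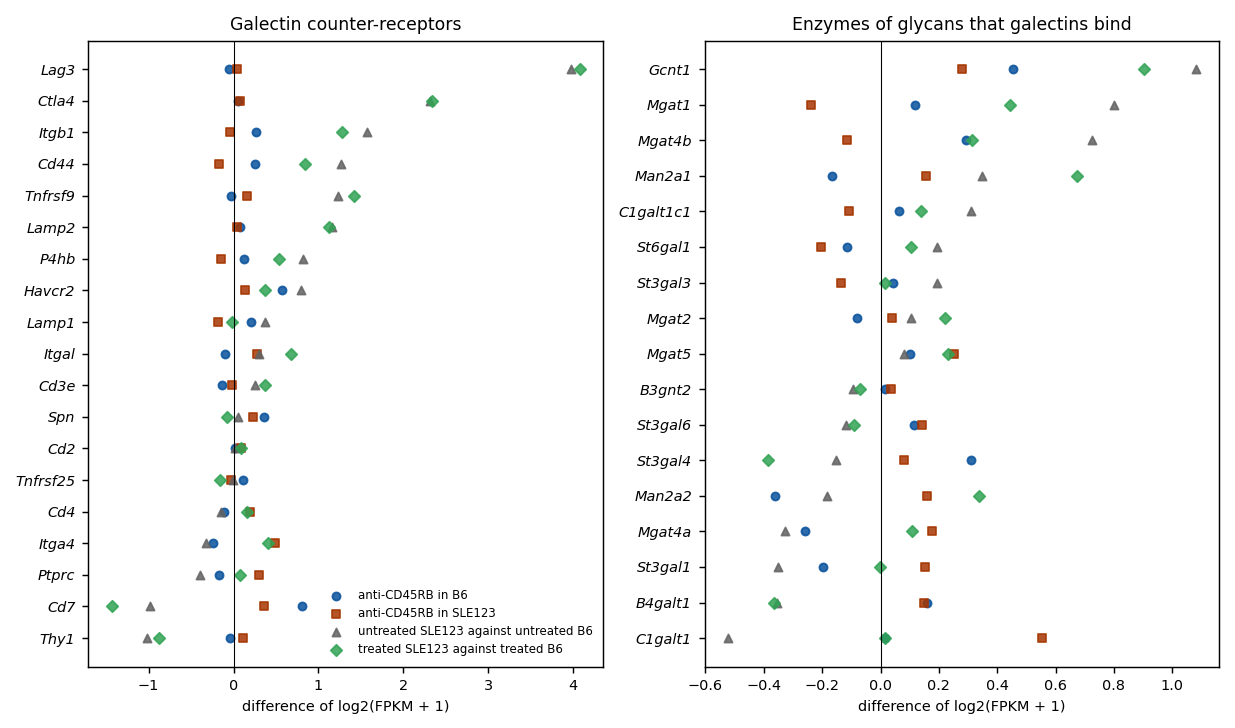
Difference of log2(FPKM + 1) (horizontal axes) of 19 galectin counter-receptors (left) and 17 enzymes of glycan synthesis (right), 1 gene per line, with a symbol for each of the 4 comparisons. Lag3 and Ctla4 are far to the right in both comparisons of the strains, at 3.98 and 2.31 without treatment, and the treatment differences lie between -0.36 and 0.81.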

How the data were processed

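RNA-Seq libraries of CD4+ T cells from 12 mice were grouped by their titles. The methods also mention sorting into CD25+ and CD25- cells, which the titles do not name. The authors deposited FPKM values per Ensembl gene. The submitters' processing notes name CASAVA 1.8, STAR and mm10, and the counting program is not given in the sources used here. Symbols and coordinates came from GENCODE M21 (GRCm38), which held 97.8% of the identifiers. The values were whole multiples of 1 fragment for 99.98% of genes above 0 (tolerance 0.02), which gave fragments and library totals, and the transcript length so found was that of the longest transcript for all 7 members. The Poisson interval covers counting error only.

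After a filter at a mean of 0.5 FPKM over all mice, which all 7 members passed, 13115 genes were tested as log2(FPKM + 1) with limma 3.58.1 (eBayes with trend, R 4.3.3) on the 6 mice of each comparison, with Benjamini-Hochberg adjustment over all of them and a threshold of 0.05. A difference on this scale understates the change of low genes. The test was checked on simulated data of 13115 genes, 200 of which were shifted. With the spread of the B6 comparison, 90.5% of the shifted genes passed at a log2 shift of 1 and 62.0% at 0.5. With the spread between untreated strains these shares were 78.5% and 0.0%, and with that between treated strains 90.0% and 58.5%. The data held far more calls, with 2990 genes higher and 2631 lower between untreated strains. The adjustment was therefore stricter in the simulation, and its shares need not hold for the data. Between untreated strains Lgals3bp was called at 0.36 (adjusted p = 0.014 by limma). A difference near 0.5 or smaller there that missed the threshold is still not read as an absence of change. The members and lists were chosen with earlier results of these data known. Genes were named by rule: the members, other galectins above 0, the 3 largest and 3 smallest differences of each pathway list, the 5 genes most correlated with each member (some of which are not reported here) and the genes within 100 kb of Lgals7. Gcg, Alb, Ins2, Ppy and single marker genes were added after their values were seen. Alternatives were other pseudocounts (0.1), filters (1 FPKM or none), median centring, TPM, quantile normalization, voom on recovered fragments, all 12 mice in 1 fit, a block for the replicate number, and each mouse left out in turn. Rescaling without immunoglobulin fragments was added after the data were seen.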

Additional observations from a re-analysis of the deposited data

How the results depend on the processing

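Of the galectin results, the SLE123 difference of Lgals7 (2.85) was 3.40 with a pseudocount of 0.1, 3.28 after rescaling to TPM and 3.47 by voom on recovered fragments. With 1 mouse left out at a time, the members called numbered 3 to 4 in B6 and 2 to 3 between treated strains. Between untreated strains they numbered 4 to 6. Nothing is read from that range, because it includes Lgals7, whose choice used the untreated SLE123 mice. The Lgals7 difference in SLE123 was 2.76 to 2.91. With the replicate number as a block, 0 members and 0 genes were called in B6 (2466 genes and 4 members had an unadjusted p under 0.05, and Lgals1, Lgals3 and Lgals7 had adjusted p-values of 0.061, 0.090 and 0.13), and 3414 genes in place of 6836 between treated strains. Whether the shared numbers pair the mice is not known. Deviations of same-numbered mice correlated at -0.14 and -0.094 in B6 and at 0.14, -0.16 and 0.27 in SLE123. Between treated strains they correlated at 0.065 and 0.14. With 3 mice per group, these few values can neither show nor exclude a pairing. Between untreated strains no block was fitted, because those groups share a single number. In each other setting tried, Lgals1, Lgals3 and Lgals7 were called in B6. Without treatment, Lgals3bp turned to -0.012 between strains with TPM. Between treated strains, Lgals1 turned to -0.0090 with TPM and -0.031 with quantile normalization, Lgals3 to -0.077 and -0.078, Lgals8 to -0.15 and -0.054, and Lgals9 to -0.13 and -0.038. Lgals8 was -0.014 with median centring and -0.029 with the block there. In B6, Lgals9 turned to 0.00055 with median centring and 0.017 with the block. With 1 mouse left out, Lgals9 in B6 ran from -0.026 to 0.0037, Lgals4 in SLE123 from -0.066 to 0.083, and between treated strains Lgals3 ran from -0.0046 to 0.24, Lgals8 from -0.013 to 0.046 and Lgals9 from -0.041 to 0.13. Rescaling shifts all genes, with a median difference of -0.38 between untreated strains, -0.14 between treated strains and 0.22 for treatment in SLE123 with TPM, and of -0.16 and -0.11 between strains with quantile normalization. The split of calls moved with it. Between untreated strains it was 2990 higher and 2631 lower, 1914 and 5974 with TPM, 2360 and 4570 with quantile normalization and 3666 and 1770 without immunoglobulin fragments. Between treated strains it was 3881 and 2955, 2442 and 4480 with TPM, and 2643 and 4821 with quantile normalization. In B6 it was 1146 and 802, and 996 and 1051 with quantile normalization. Genes called in B6 numbered 1948, 1134 with no filter, 815 with all 12 mice in 1 fit and 675 to 1393 with 1 mouse left out. In SLE123 they numbered 5, 21 with TPM, 3 by voom, 53 in 1 fit and 1 to 7 with 1 mouse left out. Between untreated strains they numbered 5621, and 3672 to 6469 with 1 mouse left out. The cause of these changes was not tested.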
